A study of Homo sapiens with 24 samples.

Results

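SG12 and SG21 are 2 lines of HGC27, a human gastric carcinoma cell line, that the labels give as TMEM97 knockouts, and the comparison here sets the 3 SG12 libraries against the 3 SG21 libraries grown in medium labelled FBS (usually fetal bovine serum). These 6 libraries were chosen by their line and medium labels from 24 in all. The other groups, of 3 libraries each, are the same lines in medium labelled LPDS (usually lipoprotein-deficient serum), SGCTRL, a wild-type line with a control guide, in both media, and unedited parental HGC27 cells in both media. Cells were grown for 3 days in high-glucose DMEM, with the serum taken here from each library's title and treatment label; a treatment protocol shared by every library, those labelled FBS included, mentions LPDS alone, and the labels do not settle this conflict. RNA was sequenced from total RNA with a strand-keeping kit that removes ribosomal RNA. The guide sites of SG12 and SG21, and whether a line is 1 clone or a pool, are not given in the labels. Both lines carry the same labelled genotype, so the comparison asks how far 2 lines edited at the same gene differ in the same medium.

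TMEM97, also called the sigma-2 receptor, is a membrane protein of the endoplasmic reticulum and lysosome that binds NPC1, the transporter that exports cholesterol from lysosomes. When sterol in the endoplasmic reticulum is low, the transcription factor SREBF2 (SREBP-2) is cut, enters the nucleus and raises transcription of cholesterol synthesis enzymes and of lipoprotein uptake. TMEM97 is itself a known target of this pathway. Cells in serum with lipoproteins obtain cholesterol by uptake, and removing lipoproteins normally raises the synthesis genes.

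The reads counted to gene entries numbered 2532742 to 3164104 in the SG12 libraries and 3000663 to 3957078 in the SG21 libraries. The counts lie mostly on the strand opposite to the gene that names an entry, so each gene below is read through the entry of an overlapping gene on the other strand, and levels in CPM, counts scaled to the size of each library, sample only that overlap. Levels can be compared between libraries for 1 gene, not between genes. SG12 replicate 3 stood apart: the chi-square of its counts per degree of freedom was 14.7 and 12.1 against the other SG12 libraries, which gave 2.90 between themselves, while the SG21 pairs gave 3.04 to 4.10. It had 10.6% of its counts in the MALAT1 antisense entry TALAM1, against 4.47% and 5.34% in the other SG12 libraries and 3.88% to 4.16% in SG21 libraries. Mitochondrial entries held 0.833% of its counts, against 0.261% and 0.272% in the other SG12 libraries and 0.459% to 0.649% in SG21 libraries. Counts of genes are therefore also given without it. The labelled epithelial cell type could not be read, because none of 12 epithelial markers has a readable overlap. Under their own names the epithelial markers summed to 25.9 to 40.7 CPM in SG12 libraries and 66.2 to 94.2 CPM in SG21 libraries, led by CLDN4 at a mean of 13.3 CPM in SG12 and 39.2 CPM in SG21, with EPCAM, CDH1 and KRT18 at most 1.63, 0.341 and 0.553 CPM in any of the 6. Sums of own-name reads for 8 fibroblast markers were 89.6 to 180.2 CPM in SG12 libraries and 49.4 to 71.6 CPM in SG21 libraries, for 6 leukocyte markers 38.2 to 44.8 CPM in SG12 libraries and 68.2 to 84.8 CPM in SG21 libraries, with PTPRC at most 0.320 CPM, and for 6 gastric markers at most 2.05 CPM. Own-name sums of 9 mesenchymal markers were 235.1 to 333.7 CPM in SG12 libraries and 159.6 to 208.7 CPM in SG21 libraries. What part other cell states have in the results below was not tested.

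The lines differed widely. In edgeR's quasi-likelihood test, 3530 of 12822 entries differed at an adjusted p under 0.05 (27.5%), 1678 higher and 1852 lower in SG12, and without SG12 replicate 3 the count was 3389 (1684 higher, 1705 lower). Read as source genes, 1219 of 2811 protein-coding genes differed (43.4%), of which 588 were higher in SG12 (20.9%) and 631 lower (22.4%), with a median log2 fold change of -0.02 over all 2811. These shares are the background for each gene list below. All the lists were chosen with earlier results of these data known, so the direction of a list is not independent evidence. Which direction holds more entries changed with the library left out (1592 higher and 1189 lower without SG12 replicate 2), so no excess in either direction is reported. The p-values measure the spread between libraries, since the labels do not say what was separate between replicates. In bulk RNA, fewer cells of a kind and less RNA per cell cannot be told apart.

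**Figure D1:**
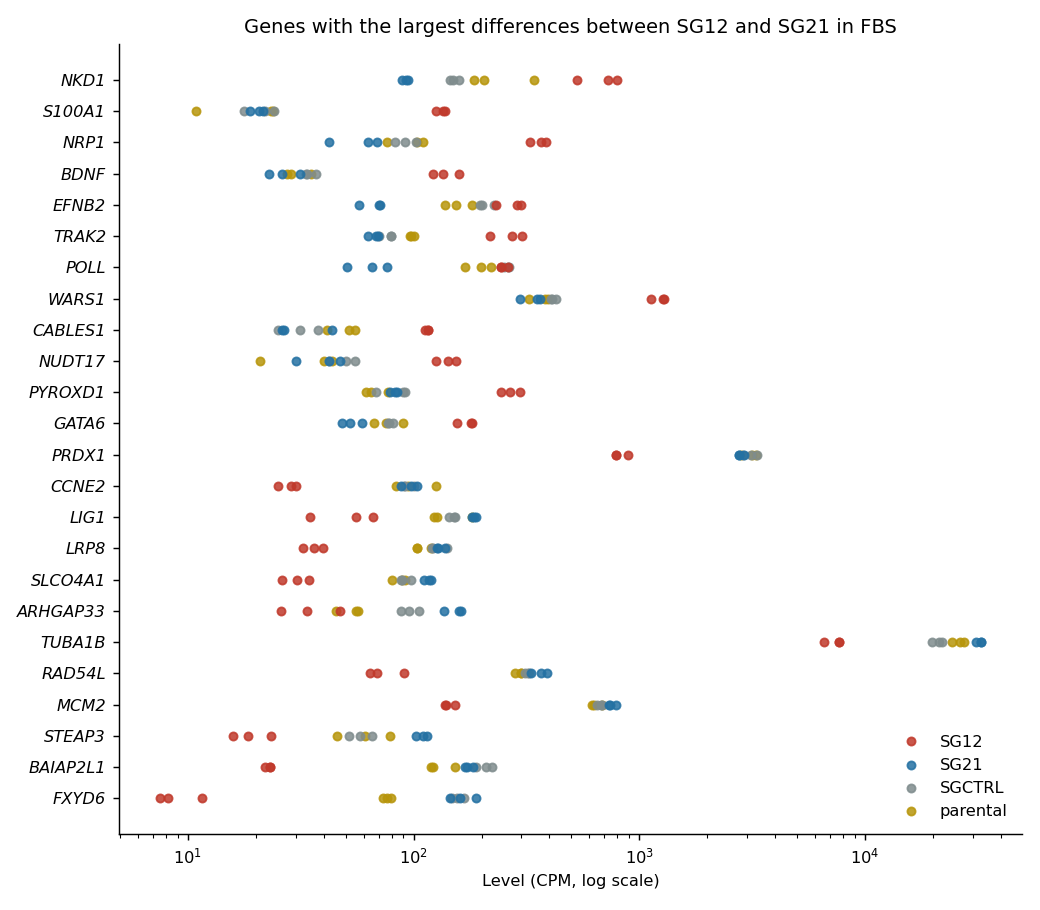
Level (CPM, log scale) of the 12 genes with the largest rises and the 12 with the largest falls in SG12 relative to SG21 in FBS, 1 point per library for SG12, SG21, SGCTRL and parental cells. FXYD6 lay between 7.51 and 11.5 CPM in SG12 and between 146 and 188 CPM in SG21, and NKD1 between 529 and 793 CPM in SG12 and between 88.4 and 94.8 CPM in SG21.

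TMEM97 RNA was still read in both lines and was lower in SG12. Its level was 57.0, 49.3 and 50.9 CPM in SG12 libraries, against 75.6, 72.3 and 78.2 CPM in SG21 libraries. The lines did not overlap, and both lay below SGCTRL, at 139, 115 and 135 CPM, and parental cells, at 109.5, 87.8 and 116 CPM. The log2 fold change of SG12 over SG21 was -0.52 ± 0.13, adjusted p = 0.00233; without SG12 replicate 2 it was -0.40 with an adjusted p of 0.0574. The reading comes from 361 bases where the 3' end of TMEM97 (chr17:28319095-28328685, hg38, plus strand) overlaps the tail-to-tail neighbour IFT20, a transport protein of cilia. Since the guide sites are not given, RNA from this overlap does not check the knockout. IFT20 itself, read through the same overlap on the other strand, was 83.3, 79.4 and 83.5 CPM in SG12 and 73.9, 59.2 and 50.6 CPM in SG21. It was higher in SG12 (log2 fold change 0.43 ± 0.14, adjusted p = 0.0248). The call was lost without SG12 replicate 1 or SG21 replicate 3 (adjusted p of 0.0612 and 0.0663), and with no count filter (0.0956).

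Cholesterol synthesis genes were lower in SG12. Of 22 genes in the list 6 were measured, 5 fell and none rose, with a median log2 fold change of -1.12 (5 fell and the median was -1.17 without SG12 replicate 3). Those described here stand in this order in the pathway: ACAT2 and HMGCS1 make acetoacetyl-CoA and HMG-CoA, IDI1 isomerises isopentenyl diphosphate, FDFT1 makes squalene and LSS closes the sterol ring. The starts of the 2 list members HMGCS1 and LSS, of SREBF2 and of TMEM97 are shown because their RNA fell in SG12 and because these promoters are classic places to look for sterol control. Each is the stretch of 250 bases before the RefSeq start site on GRCh38.p14, written along the gene's strand, and for HMGCS1 it is the first of 2 promoters listed. For TMEM97 the RefSeq start lies past the gene start given above, so the last part of its stretch lies inside the gene as given there. Capitals mark CCAAT or its reverse complement ATTGG, the box bound by NF-Y, which works beside SREBP at sterol genes, and in SREBF2 also a classic sterol element bound by SREBP, the longest run of capitals in its line.
HMGCS1 (chr5:43313413-43313662, minus strand): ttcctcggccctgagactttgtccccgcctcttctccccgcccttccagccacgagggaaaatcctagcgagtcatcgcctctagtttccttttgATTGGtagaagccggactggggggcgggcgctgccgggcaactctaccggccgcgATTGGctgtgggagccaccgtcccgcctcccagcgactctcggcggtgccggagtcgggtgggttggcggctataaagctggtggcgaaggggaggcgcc
LSS (chr21:46228775-46229024, minus strand): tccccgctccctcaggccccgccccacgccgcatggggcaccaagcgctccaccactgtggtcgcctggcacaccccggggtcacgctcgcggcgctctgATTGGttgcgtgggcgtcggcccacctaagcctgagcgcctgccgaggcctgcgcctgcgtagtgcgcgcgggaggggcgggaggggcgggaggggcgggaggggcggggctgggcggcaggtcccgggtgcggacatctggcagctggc
SREBF2 (chr22:41832855-41833104, plus strand): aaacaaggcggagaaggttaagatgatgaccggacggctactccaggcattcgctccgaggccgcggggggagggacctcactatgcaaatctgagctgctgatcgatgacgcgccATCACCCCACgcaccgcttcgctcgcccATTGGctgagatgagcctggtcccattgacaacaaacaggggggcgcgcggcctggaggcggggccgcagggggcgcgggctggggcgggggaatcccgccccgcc
TMEM97 (chr17:28318950-28319199, plus strand): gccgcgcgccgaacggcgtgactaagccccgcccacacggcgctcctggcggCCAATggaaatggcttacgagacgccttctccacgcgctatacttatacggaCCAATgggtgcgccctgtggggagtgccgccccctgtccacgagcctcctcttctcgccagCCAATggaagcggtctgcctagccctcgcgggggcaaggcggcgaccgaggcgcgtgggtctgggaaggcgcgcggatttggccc
HMGCS1 holds 2 CCAAT boxes, LSS 1, SREBF2 1 and TMEM97 3, while 32.0% of all 35116 promoters in the table hold at least 1 on either strand. The sterol element, on either strand, is in 0.0342% of them, 12 in all, and of the promoters printed only in that of SREBF2. A match describes these letters and does not show that a factor binds.

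HMGCS1, the enzyme that commits acetyl units to the pathway and whose promoter carries 2 boxes, had 434, 445 and 565 CPM in SG12 libraries, against 1245, 1121 and 1288 CPM in SG21 libraries. Every SG12 library lay well below every SG21 library, and the log2 fold change was -1.34 ± 0.11, adjusted p = 1.37e-12. In wild-type cells HMGCS1 was 1854, 1828 and 2173 CPM in SGCTRL and 996, 895 and 972 CPM in parental cells, so SG12 lay below both and SG21 between them. ACAT2 had 121, 127 and 126 CPM in SG12 and 419, 352 and 407 CPM in SG21 (-1.65 ± 0.11, adjusted p = 1.35e-14). Here the 2 lines lay on opposite sides of SGCTRL, at 192 to 229 CPM, with log2 fold changes of -0.79 for SG12 and 0.86 for SG21 against the same SGCTRL libraries. LSS had 182, 179 and 174 CPM in SG12 and 331, 315 and 356 CPM in SG21, without overlap (-0.91 ± 0.10, adjusted p = 6.64e-09). IDI1 had 115, 174 and 175 CPM in SG12 and 273, 261 and 287 CPM in SG21 (-0.82 ± 0.17, adjusted p = 0.000398). FDFT1 was 24.9, 22.1 and 30.6 CPM in SG12 and 28.9, 37.1 and 27.9 CPM in SG21, with overlapping groups and no call (-0.29 ± 0.21, adjusted p = 0.326). The SGCTRL libraries had 2.10% to 2.16% ambiguous reads, against 2.58% to 2.80% in the 6 SG12 and SG21 libraries, so values against SGCTRL cross a library difference that the SG12 to SG21 comparison does not. Parental libraries in FBS, at 2.66% to 2.69%, were on the side of SG12 and SG21. Many genes below are set against SGCTRL only.

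**Figure D2:**
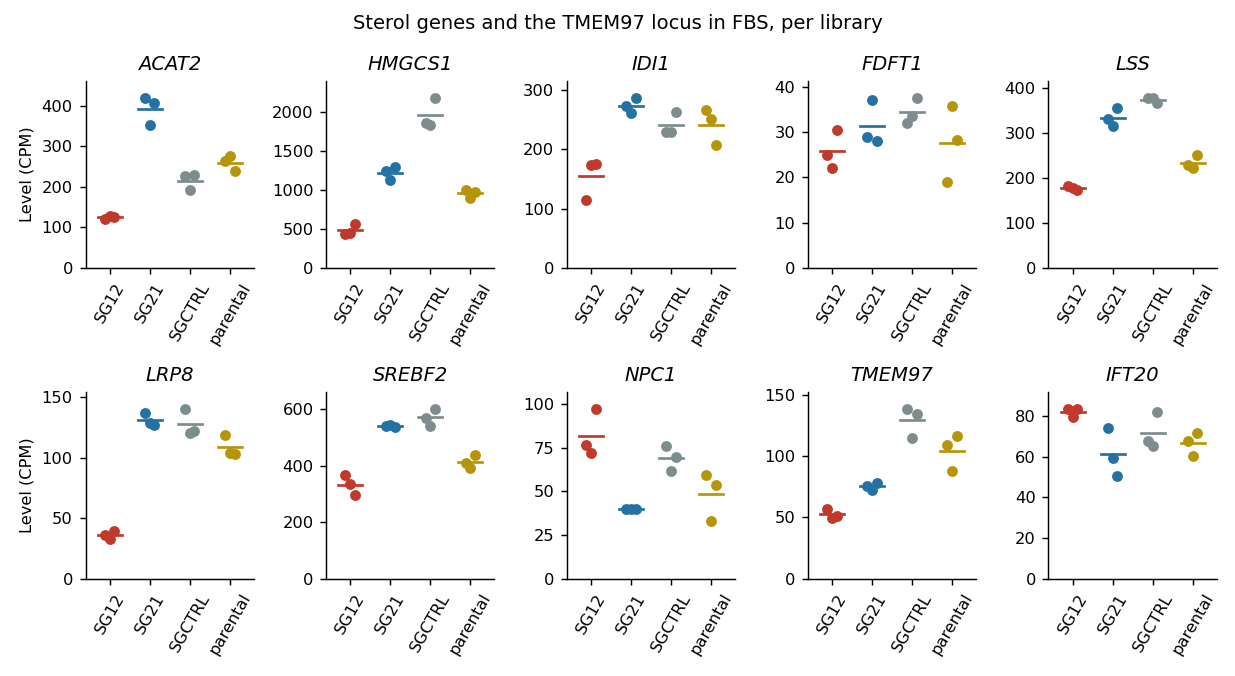
Level (CPM) of 5 cholesterol synthesis genes, 3 genes of sterol uptake and control, TMEM97 and IFT20 in FBS, 1 point per library with a line at the group mean. SG12 is below SG21 in every library for 7 of the 10 genes and above it for NPC1 and IFT20, while FDFT1 overlaps.

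Values in brackets below are log2 fold changes of SG12 over SG21 with their standard error. Genes of sterol uptake and SREBP control were partly lower in SG12. Of 9 measured from a list of 26, 5 fell and 2 rose in SG12, with a median of -0.52 (5 and 2 without SG12 replicate 3, median -0.48). Of all source genes 22.4% were called lower and 20.9% higher, so the 2 rises of 9 are near the background share. LRP8, a receptor for apolipoprotein E and reelin, had 36.2, 32.3 and 39.5 CPM in SG12 and 137, 129 and 127 CPM in SG21. This was the largest fall of the list, -1.86 ± 0.13, adjusted p = 5.94e-14, and SG21 lay inside the range of SGCTRL, 121 to 140.4 CPM. SREBF2, the factor whose promoter is shown above, had 366, 335 and 297 CPM in SG12 and 539, 544 and 538 CPM in SG21 (-0.70 ± 0.11, adjusted p = 5.13e-06). GRAMD1A, a carrier that moves cholesterol from the plasma membrane to the endoplasmic reticulum, fell with a log2 fold change of -1.78 ± 0.22, adjusted p = 7.36e-08.

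NPC1 ran the other way. It had 76.5, 72.0 and 97.4 CPM in SG12 and 40.0, 39.6 and 39.8 CPM in SG21, with the SG21 libraries almost equal and all below SG12 (1.04 ± 0.17, adjusted p = 1.2e-05). SGCTRL, at 76.0, 61.9 and 70.0 CPM, was near SG12: against the same SGCTRL libraries the log2 fold change of NPC1 was 0.24 for SG12 and -0.80 for SG21. NPC1 lies on chromosome 18, in a 5 Mb window, described below, where 16 of 18 entries had a positive log2 fold change. Of the 18, 7 were called higher in SG12 (13.1% of all entries) and 0 lower (14.4% of all entries). INSIG1 and PGRMC1 could not be read. SREBF1, the SREBP of fatty acid genes, was 19.8, 22.4 and 24.9 CPM in SG12 and 24.2, 21.5 and 20.4 CPM in SG21, with no call (0.019 ± 0.21, adjusted p = 0.959).

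Lipid synthesis outside the sterol branch was also partly lower. Of 9 fatty acid and glycerolipid genes measured from a list of 30, 4 fell and 2 rose in SG12, median -0.21 (also 4 and 2 without SG12 replicate 3). PCYT2, which makes the activated ethanolamine for phosphatidylethanolamine, had 27.6, 35.2 and 28.1 CPM in SG12 and 96.1, 105 and 90.9 CPM in SG21 (-1.68 ± 0.15, adjusted p = 6.8e-11). ACLY, which supplies cytosolic acetyl-CoA, had 571, 566 and 523 CPM in SG12 and 939, 749 and 1038 CPM in SG21 (-0.72 ± 0.094, adjusted p = 1.89e-07). Groups were apart for both. The fatty acid desaturase FADS2 fell, with a log2 fold change of -1.18, and the acyl-CoA ligase ACSL3 had -1.01 at only 4.78 to 6.11 CPM in SG12 and 7.18 to 18.1 CPM in SG21. The ACSL3 call was lost without SG12 replicate 1 or SG21 replicate 1, and with the spread of the compared groups alone (adjusted p = 0.051). DGAT2, the last enzyme of triglyceride synthesis, was higher in SG12 (0.43 ± 0.14, adjusted p = 0.0207), as was PCYT1A of the phosphatidylcholine branch (0.34 ± 0.12, adjusted p = 0.033). Both calls were lost when SG12 replicate 1 was left out (adjusted p of 0.0937 for DGAT2 and 0.155 for PCYT1A). DGAT2 was also lost without SG21 replicate 1 (0.0855). PCYT1A was also lost without SG21 replicate 2 (0.0504), with no count filter (0.167) and with at least 1 CPM in 3 libraries as the filter (0.0705). Neither of 2 LXR targets measured, NR1H3 and LPCAT3, was called.

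The sterol difference between the lines changed with the medium. In LPDS, 2344 of 12822 entries differed between SG12 and SG21 (18.3%), and 963 of 2811 source genes (34.3%). There the cholesterol list had 1 member higher (13.2% of source genes) and 1 lower (21.1%), with a median of 0.018. HMGCS1 had 2463, 2800.0 and 2734 CPM in SG12 and 2502, 2920.0 and 2836 CPM in SG21 in LPDS, where the lines overlapped (-0.046, adjusted p = 0.817). IDI1 turned round, with 636, 599.5 and 682 CPM in SG12 and 483, 243 and 223 CPM in SG21 (1.02, adjusted p = 2.53e-05). The values of 243 and 223 CPM are those of SG21 replicates 2 and 3, which differ from replicate 1 in ambiguous reads, as given below. The part of this in the IDI1 difference was not tested. TMEM97 turned round as well. It had 211, 190.2 and 178 CPM in SG12 and 119.5, 121 and 127 CPM in SG21 in LPDS (0.66, adjusted p = 9.89e-05), opposite to FBS. In the test of the difference between media, 1650 of 12822 entries passed (12.9%) and 614 of 2811 source genes (21.8%). For 5 of the 6 cholesterol genes the SG12 to SG21 difference was lower in FBS than in LPDS (9.5% of source genes), and for 5 of the 9 uptake genes. The change of the difference was -1.84 for IDI1, -1.29 for HMGCS1, -1.25 for GRAMD1A and -1.18 for TMEM97. In LPDS, SG21 replicates 2 and 3 had 2.15% and 2.18% ambiguous reads against 2.72% in replicate 1, on the side of SGCTRL, and with a term for this split only 837 entries depended on the medium and 1100 differed in LPDS. Over all 24 libraries source genes whose log2 level was among the most like that of TMEM97 were IER2 (Pearson r = 0.898), HMGCS1 (0.883), C11orf96 (0.864) and NR4A1 (0.861), a description over libraries that share lines and media.

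**Figure D3:**
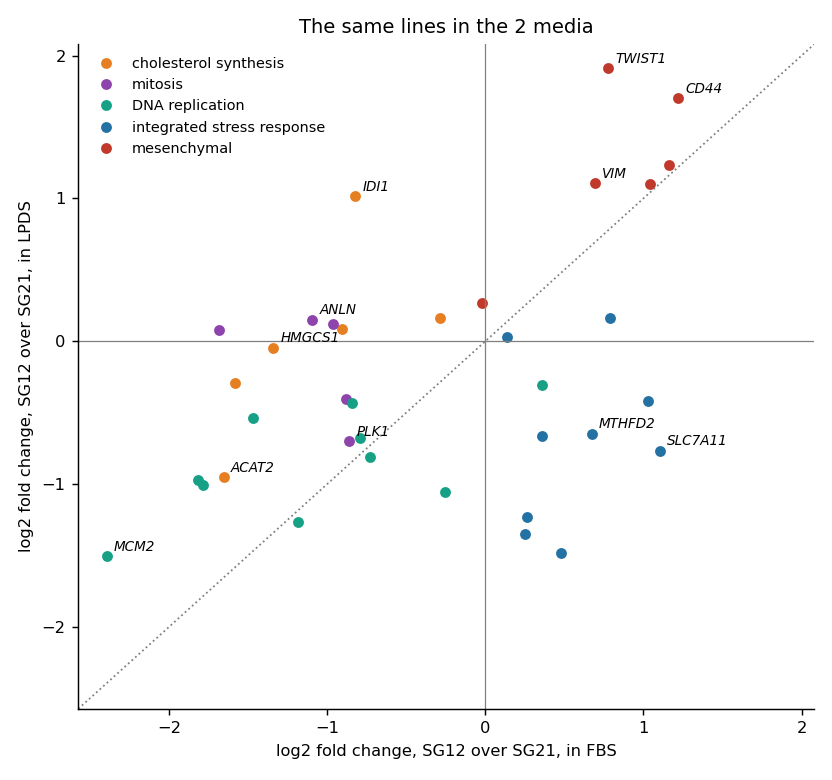
Log2 fold change of SG12 over SG21 in FBS (x axis) and LPDS (y axis) for the measured members of 5 gene lists, 1 point per gene, with a dotted line where both media are equal. Cholesterol genes had a median of -1.12 in FBS and 0.018 in LPDS, stress response genes 0.48 in FBS and -0.66 in LPDS, and mesenchymal genes lay above 0 in both media except SPARC in FBS.

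DNA replication genes formed a second group that was lower in SG12. Of 10 measured from a list of 45, 8 fell and 1 rose, with a median of -1.02 (8 fell and 1 rose without SG12 replicate 3, median -0.95). MCM2, a subunit of the replicative helicase, had 153, 139.6 and 137 CPM in SG12 and 787, 731 and 739 CPM in SG21, 5.25-fold lower in SG12 (-2.39 ± 0.11, adjusted p = 7.99e-19). The groups lay far apart, and SGCTRL, at 647 to 681 CPM, was below SG21 and much nearer to it than to SG12. LIG1, the ligase that joins Okazaki fragments, had 66.2, 55.7 and 34.6 CPM in SG12 and 181, 189.9 and 184 CPM in SG21 (-1.82 ± 0.16, adjusted p = 3.28e-11); SG12 replicate 3 was the lowest. CCNE2, cyclin E2 of S-phase entry, had 28.7, 25.0 and 30.1 CPM in SG12 and 103, 87.9 and 97.0 CPM in SG21 (-1.78 ± 0.19, adjusted p = 2.14e-09). CLSPN, an adaptor of the replication checkpoint, fell, with a log2 fold change of -1.47, as did RFC5 of the clamp loader, at -1.19, and RRM1 of ribonucleotide reductase, at -0.84. PRIM1 and GINS3 also fell (-0.79 and -0.73) and GINS4 rose (0.36). In LPDS all 10 were lower in SG12, with a median of -0.89, and MCM2 had 419, 348 and 327 CPM in SG12 and 894, 1177 and 1032 CPM in SG21.

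Recombination and repair genes followed. Of 12 measured from a list of 30, 8 fell and 1 rose in SG12, with a median of -0.75 (7 fell and 1 rose without SG12 replicate 3). RAD54L, a DNA translocase of homologous recombination, had 69.0, 90.3 and 64.0 CPM in SG12 and 389, 332 and 366 CPM in SG21, without overlap (-2.28 ± 0.12, adjusted p = 1.81e-17). Its promoter is shown as the example of this group because it holds, besides a CCAAT box, TTCCCGCC, the reverse complement of GGCGGGAA, a form of the site of the E2F factors that drive S-phase genes, which 2.72% of the promoters hold on either strand; of the 7 replication genes with a listed promoter, 3 hold it, as do 3 of the 10 recombination and repair genes. The site is also in 2 of the 5 glycolysis genes and in 0 of the 5 mitosis genes, lists described below. These counts are per gene, while the 2.72% is per promoter. They cover 7 promoters for replication, 15 for recombination and repair, 13 for glycolysis and 5 for mitosis. The promoter shown is 1 of 2 listed for RAD54L.
RAD54L (chr1:46247438-46247687, plus strand): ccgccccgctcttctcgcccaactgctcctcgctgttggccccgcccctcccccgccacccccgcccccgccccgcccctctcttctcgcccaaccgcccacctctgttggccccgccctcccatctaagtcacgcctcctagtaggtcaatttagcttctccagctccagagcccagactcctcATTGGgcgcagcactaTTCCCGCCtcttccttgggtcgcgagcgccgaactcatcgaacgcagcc
FANCA, of the Fanconi anaemia core complex, had 44.4, 48.4 and 45.6 CPM in SG12 and 159, 156 and 136 CPM in SG21 (-1.70 ± 0.13, adjusted p = 9.43e-13). MSH6 of mismatch repair, FANCL, and the recombination protein XRCC3 fell, with log2 fold changes of -1.08, -1.07 and -0.96, as did FANCI, FANCD2 and LIG3, at -0.84, -0.66 and -0.31. The member that rose was POLL, DNA polymerase lambda of end joining, at 262, 243 and 244 CPM in SG12 and 65.5, 50.8 and 76.5 CPM in SG21 (1.96 ± 0.13, adjusted p = 3.06e-14). SGCTRL was 264, 262 and 251 CPM, level with SG12. POLL sits in a stretch of chromosome 10 described below.

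All 5 measured mitosis genes of 35 fell in SG12, with a median of -0.96 (5 without SG12 replicate 3). ANLN, anillin of the cleavage furrow, had 224, 234 and 245 CPM in SG12 and 497, 527 and 476 CPM in SG21 (-1.09 ± 0.13, adjusted p = 4.3e-08). PLK1, the mitotic kinase, had 306, 303 and 235 CPM in SG12 and 451, 545 and 536 CPM in SG21 (-0.86 ± 0.12, adjusted p = 1.12e-06). Groups were apart for both. Cyclin A2 (CCNA2) and the kinesins KIF20A and KIF4A fell, with log2 fold changes of -0.88, -1.68 and -0.96. In LPDS only PLK1 and CCNA2 were called, with log2 fold changes of -0.70 and -0.41, and the list's median was 0.076. The difference between media passed for ANLN, KIF20A and KIF4A, not for PLK1 (adjusted p = 0.598) or CCNA2 (adjusted p = 0.0942).

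**Figure D4:**
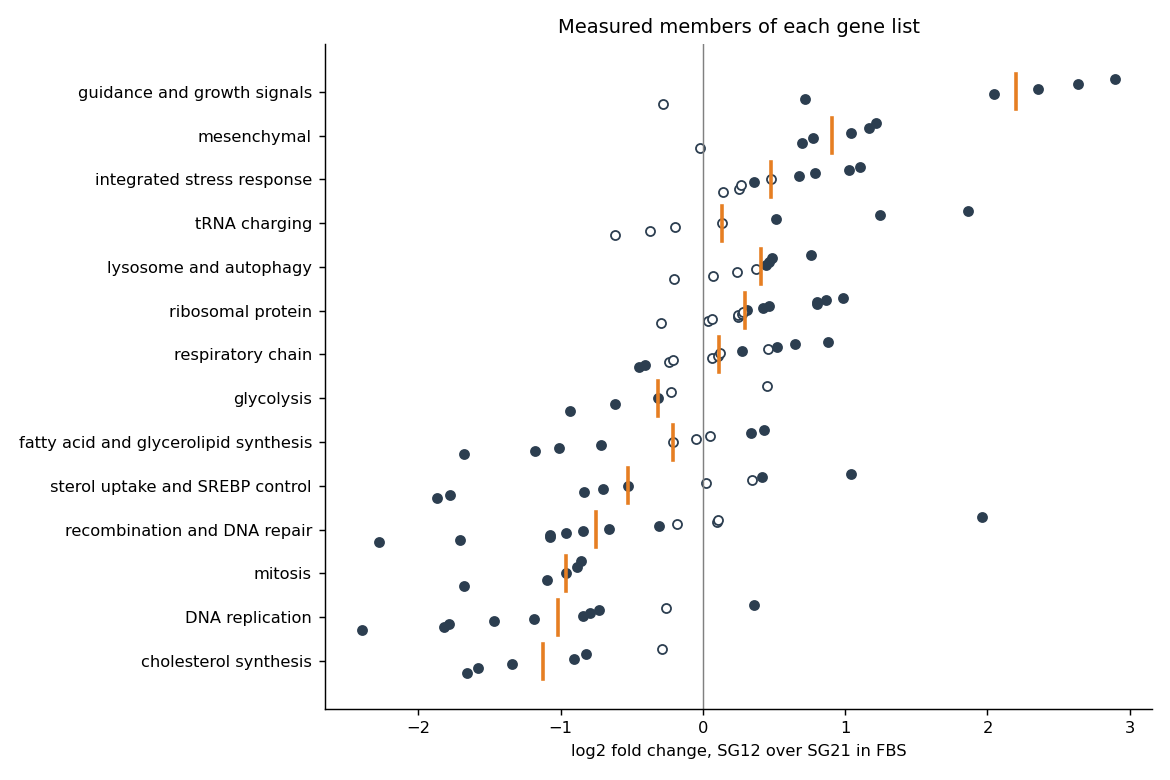
Log2 fold change of SG12 over SG21 in FBS for every measured member of 14 gene lists, 1 point per gene, filled where the adjusted p is under 0.05, with an orange bar at the list's median. Medians run from -1.12 for cholesterol synthesis and -1.02 for DNA replication to 0.91 for mesenchymal genes and 2.20 for guidance and growth signals.

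Genes of the integrated stress response, which ATF4 raises when amino acids are scarce or translation is slowed, were higher in SG12 in FBS. Of 9 measured from a list of 33, 5 rose and none fell, median 0.48 (6 rose without SG12 replicate 3, median 0.62). SLC7A11, the cystine importer, had 445, 433 and 461 CPM in SG12 and 219, 197 and 208 CPM in SG21 (1.10 ± 0.11, adjusted p = 6.08e-10). MTHFD2, of mitochondrial folate metabolism, had 3209, 3229 and 2808 CPM in SG12 and 1930.0, 1791 and 2080.0 CPM in SG21 (0.67 ± 0.081, adjusted p = 3.42e-08). The lines did not overlap for either gene. ALDH1L2, VEGFA and the proline enzyme PYCR1 also rose, with log2 fold changes of 1.03, 0.79 and 0.36; PYCR1 was lost without SG12 replicate 1 or SG21 replicate 1 (adjusted p of 0.0703 and 0.0793). In LPDS none of the 9 was higher in SG12 and 6 were lower, with a median of -0.66: the amino acid carriers SLC7A5 and SLC1A5 had -1.35 and -1.23 there, against 0.25 and 0.27 in FBS, where neither was called. The difference between media passed for 8 of the 9, each higher in FBS (12.3% of source genes).

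Among tRNA charging genes the pattern by medium was similar in direction for 3 members. WARS1, the tryptophanyl-tRNA synthetase, had 1275, 1280.0 and 1132 CPM in SG12 and 363, 297 and 352 CPM in SG21 in FBS (1.87 ± 0.10, adjusted p = 6.95e-17). In LPDS it had 281, 272 and 235 CPM in SG12 and 471, 496 and 457 CPM in SG21, so the order of the lines turned round (-0.85, adjusted p = 4.63e-08). AIMP2, a scaffold of the multi-synthetase complex, and MARS1 also rose in SG12 in FBS (1.25 and 0.52) and fell in LPDS (-0.79 and -0.52). The other 4 of 7 measured, among them CARS1, YARS1 and AIMP1, were not called in FBS, and the list's median was 0.13 (3 rose without SG12 replicate 3). MARS1 is read through the entry of DDIT3, another gene of the stress response, so some of its reads may be those of DDIT3. ER chaperones went down in part: of 6 measured, PDIA6 (-0.65 ± 0.082, adjusted p = 7.7e-08), HSP90B1 (-0.53 ± 0.10, adjusted p = 4.54e-05) and PDIA3 (-0.54 ± 0.21, adjusted p = 0.0473) fell and none rose, median -0.37 (3 fell without SG12 replicate 3). PDIA3 ranged over 371 to 556 CPM in SG12 and 583 to 776 CPM in SG21, and its call was lost when any 1 of 5 libraries was left out.

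Genes of the hypoxia and collagen modification list went both ways, with 2 of 9 higher and 2 lower (median 0.21; 2 and 2 without SG12 replicate 3), shares near those of all source genes (20.9% higher and 22.4% lower). The angiogenic factor VEGFA had 882, 892 and 911 CPM in SG12 and 514, 527 and 511 CPM in SG21, apart (0.79 ± 0.10, adjusted p = 6.05e-08). P4HA2, a collagen prolyl hydroxylase, had 376, 372 and 370.3 CPM in SG12 and 188, 188 and 193 CPM in SG21, also apart (0.97 ± 0.12, adjusted p = 7.88e-08). ANKRD37 and the oxidase ERO1A fell, with log2 fold changes of -0.75 and -0.67, and HIF1A had 0.12 with no call (adjusted p = 0.577). In glycolysis, 3 of 5 fell and none rose (median -0.32; 3 without SG12 replicate 3): the aldolases ALDOC (-0.93 ± 0.10, adjusted p = 6.64e-09) and ALDOA (-0.62 ± 0.092, adjusted p = 1.79e-06), and GAPDH (-0.32 ± 0.078, adjusted p = 0.00199), whose call was lost without SG21 replicate 2 or 3 (adjusted p of 0.0591 and 0.157). ALDOC had 722, 736 and 704 CPM in SG12 and 1258, 1353 and 1520.0 CPM in SG21.

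Mitochondrial genes of the nucleus showed small differences. Of 12 respiratory chain genes measured from 75, 4 rose and 2 fell in SG12, median 0.12 (4 and 2 without SG12 replicate 3). Complex I subunit NDUFB8 had 551, 534 and 486 CPM in SG12 and 295, 297 and 263 CPM in SG21 (0.88 ± 0.13, adjusted p = 1.8e-06); it lies in the same stretch of chromosome 10 as POLL. SDHC of complex II rose, with a log2 fold change of 0.52 and NDUFA11 at 0.65. NDUFA2 fell, with a log2 fold change of -0.40, a call lost without SG12 replicate 2 or SG21 replicate 2, and the calls for NDUFB9 (-0.45) and NDUFS7 (0.27) were lost in 5 alternatives each. In the TCA cycle and fatty acid oxidation list 4 of 8 fell and none rose, median -0.32 (2 fell without SG12 replicate 3): IDH3A (-0.43 ± 0.10, adjusted p = 0.00192), IDH3G (-0.36), PDHB (-0.32) and PDHA1 (-0.57). All 4 belong to isocitrate or pyruvate dehydrogenase, and only IDH3A held in every alternative run. In the mitochondrial dynamics list of 4 measured genes POLG, the polymerase of mitochondrial DNA, had -0.85 and PINK1, a kinase of mitophagy, had 0.37, lost without SG12 replicate 1 (adjusted p = 0.0531) (1 fell and 1 rose, also without SG12 replicate 3).

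Lysosome and autophagy genes were higher in SG12 where they were called. Of 8 measured from 33, 4 rose and none fell, median 0.41 (4 without SG12 replicate 3, median 0.48). The lysosomal peptidase TPP1 had 255, 239 and 265 CPM in SG12 and 136, 175 and 136 CPM in SG21, without overlap (0.76 ± 0.12, adjusted p = 7.62e-06). Cathepsin A (CTSA) rose, with a log2 fold change of 0.49, as did the hexosaminidase subunit HEXA, at 0.44, and the autophagy protein WIPI1, at 0.46. The WIPI1 call was lost with no count filter (adjusted p = 0.0519). The autophagy receptor SQSTM1 was 1099 to 1221 CPM in SG12 and 1295 to 1386 CPM in SG21, not called (-0.20 ± 0.084, adjusted p = 0.0674). Of 6 p53 targets only TP53I3 was called: it had 223, 186 and 188 CPM in SG12 and 81.3, 84.4 and 96.2 CPM in SG21 (1.19 ± 0.13, adjusted p = 2.51e-09). MDM2 had 0.29 (adjusted p = 0.063), and the list's median was -0.19. Of 14 ribosomal protein genes measured from 75, 7 rose and none fell, median 0.30 (5 rose without SG12 replicate 3). RPS3A had 1484, 1450.0 and 1378 CPM in SG12 and 745, 752 and 685 CPM in SG21 (0.98 ± 0.10, adjusted p = 3.77e-10), and RPL15 had 1202, 1121 and 1108 CPM in SG12 and 701, 643 and 623 CPM in SG21 (0.80 ± 0.10, adjusted p = 1.6e-07). Ribosomal protein genes have many pseudogene copies, so their counts are less certain.

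Mesenchymal genes were higher in SG12. Of 6 measured from 9, 5 rose and none fell, median 0.91 (4 rose without SG12 replicate 3, where ZEB1 had an adjusted p of 0.0808; it was also lost without SG21 replicate 1 or 3). CD44, the hyaluronan receptor, had 241, 245 and 243 CPM in SG12 and 111, 85.2 and 118 CPM in SG21 (1.22 ± 0.13, adjusted p = 4.21e-09). VIM, the intermediate filament vimentin, had 25160.0, 23120.0 and 22420.0 CPM in SG12 and 14300.0, 15860.0 and 13570.0 CPM in SG21 (0.69 ± 0.11, adjusted p = 7.92e-06). Groups were apart for both, and for VIM the SGCTRL libraries lay at 21400.0 to 27560.0 CPM. ZEB2, a repressor of epithelial genes, had 91.5, 109.8 and 93.3 CPM in SG12 and 51.4, 48.8 and 43.4 CPM in SG21 (1.04 ± 0.19, adjusted p = 4.54e-05), and SGCTRL was 42.5 to 51.6 CPM. TWIST1 had 62.5, 55.4 and 84.7 CPM in SG12 and 42.0, 38.6 and 37.3 CPM in SG21 (0.78 ± 0.18, adjusted p = 0.000825). ZEB1, at 11.8 to 16.3 CPM in SG12 and 4.70 to 7.68 CPM in SG21, rose, with a log2 fold change of 1.17, and SPARC had -0.019 with no call. Set side by side against the same SGCTRL libraries, the list's median was 0.28 for SG12 and -0.74 for SG21. The same 5 genes were higher in SG12 in LPDS, with a median of 1.17 over the list. The single fibroblast gene measured, THY1, was lower in SG12 (-0.40 ± 0.11, adjusted p = 0.00688), a call lost without SG12 replicate 2 or 3 or SG21 replicate 2 or 3, and both lines lay below SGCTRL, at 192 to 252 CPM in SG12, 288 to 308 CPM in SG21 and 482 to 585 CPM in SGCTRL.

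Of the gene lists, guidance and growth signals had the highest median, 2.20. The list was drawn up with these results known, so its direction is not independent evidence. Of 6 measured from 37, 5 rose and none fell (5 without SG12 replicate 3). BDNF, a neurotrophin, had 122, 134 and 159 CPM in SG12 and 22.9, 26.2 and 31.5 CPM in SG21 (2.36 ± 0.17, adjusted p = 2.11e-13). EFNB2, the membrane ligand ephrin B2, had 299, 287 and 231 CPM in SG12 and 70.6, 57.5 and 70.7 CPM in SG21 (2.04 ± 0.12, adjusted p = 2.26e-15). Groups were apart for both; SGCTRL lay between the lines for each, at 196 to 226 CPM for EFNB2 and, just above SG21, 33.4 to 36.9 CPM for BDNF. NRP1, a receptor for semaphorins and VEGF, had 384, 367 and 329 CPM in SG12 and 62.9, 42.3 and 69.1 CPM in SG21 (2.64 ± 0.15, adjusted p = 1.78e-16), and its relative NRP2 rose, with a log2 fold change of 0.72. NKD1, an inhibitor of Wnt signalling that is also a Wnt target, had 728, 793 and 529 CPM in SG12 and 94.8, 88.4 and 92.6 CPM in SG21 (2.90 ± 0.16, adjusted p = 1.36e-16), with SG12 replicate 3 the lowest of its group. The receptor EPHB4 was 54.6 to 62.1 CPM in SG12 and 67.2 to 73.0 CPM in SG21 and was not called.

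Among source genes outside the lists with a mean above 48.7 CPM, the largest fall was in FXYD6, a regulator of the sodium pump. It had 7.51, 11.5 and 8.15 CPM in SG12 libraries, against 146, 160.0 and 188 CPM in SG21 libraries, 17.9-fold lower in SG12 (-4.17 ± 0.18, adjusted p = 1.19e-19), while SGCTRL was 148 to 167 CPM. BAIAP2L1, which bends membranes at actin-rich edges, had 23.2, 23.1 and 22.0 CPM in SG12 and 169, 172 and 183 CPM in SG21 (-2.94 ± 0.14, adjusted p = 7.99e-19). TUBA1B, an alpha-tubulin, had 7659, 7651 and 6590.0 CPM in SG12 and 32550.0, 31050.0 and 32770.0 CPM in SG21 (-2.14 ± 0.077, adjusted p = 7.36e-22), the smallest adjusted p of the genes named. SGCTRL lay between the lines for TUBA1B, at 19790.0 to 22020.0 CPM, but level with SG21 for PRDX1, a peroxide reductase with 895, 789 and 787 CPM in SG12, 2914, 2771 and 2760.0 CPM in SG21 (-1.77 ± 0.086, adjusted p = 2.48e-18) and 2868 to 3309 CPM in SGCTRL. STEAP3, which reduces iron in endosomes, fell, with a log2 fold change of -2.49, as did ARHGAP33, at -2.10, and SLCO4A1, an organic anion carrier, at -1.93. Reads of multicopy tubulin genes may be shared among them.

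Of the rises outside the lists, S100A1, a calcium-binding protein, had 138, 135 and 126 CPM in SG12 and 18.8, 21.5 and 20.7 CPM in SG21 (2.70 ± 0.20, adjusted p = 2.11e-13). In LPDS the gap was wider, with 212, 234 and 212 CPM in SG12 and 14.0, 10.1 and 8.01 CPM in SG21 (4.36). TRAK2, an adaptor that couples mitochondria to motor proteins, had 272, 304 and 218 CPM in SG12 and 62.5, 67.8 and 69.4 CPM in SG21 in FBS (1.99 ± 0.13, adjusted p = 1.39e-14), but 104, 119 and 97.2 CPM in SG12 and 123, 95.7 and 96.8 CPM in SG21 in LPDS, where the lines overlapped. PYROXD1, an oxidoreductase, rose, with a log2 fold change of 1.72 in FBS and fell in LPDS (-0.43, adjusted p = 0.0338). The transcription factor GATA6 had 181, 179 and 156 CPM in SG12 and 59.1, 48.3 and 52.5 CPM in SG21 (1.69 ± 0.14, adjusted p = 2.29e-12). CABLES1, which links cyclin-dependent kinases to their regulators, and NUDT17, a Nudix hydrolase, rose, with log2 fold changes of 1.85 and 1.83. Among the strongest changes between media were SAMD11, with log2 fold changes of 1.36 in FBS and -1.37 in LPDS, and SNTB1, a syntrophin, with 0.65 in FBS and -1.62 in LPDS. PNN, a splicing-related protein, went the other way, with -1.10 in FBS and 0.77 in LPDS (adjusted p = 0.0624 in LPDS), and fell just short of the threshold in FBS in DESeq2's Wald test (adjusted p = 0.0532).

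A few entries counted under their own gene name, whose strand of origin cannot be settled, differed widely between the lines. YKT6, a SNARE of membrane fusion, had 1.71, 2.24 and 1.22 CPM in SG12 and 51.4, 53.7 and 53.6 CPM in SG21 (-4.88 ± 0.29, adjusted p = 6.21e-16), against 50.2 to 64.1 CPM in SGCTRL and 29.1 to 40.8 CPM in parental cells. UBE4B, a ubiquitin ligase, had 38.6, 39.4 and 36.7 CPM in SG12 and 2.02, 2.48 and 1.10 CPM in SG21 (4.32 ± 0.34, adjusted p = 1.26e-12), against 5.64 to 6.25 CPM in SGCTRL and 14.5 to 18.0 CPM in parental cells. Both differences kept their direction in LPDS (-6.45 for YKT6 and 3.54 for UBE4B). L3MBTL2, a chromatin reader, had 266, 248 and 267 CPM in SG12 and 9.41, 7.18 and 9.39 CPM in SG21 in FBS (4.91 ± 0.22, adjusted p = 1.46e-19), but in LPDS 10.3, 11.7 and 16.5 CPM in SG12 and 22.8, 19.4 and 17.5 CPM in SG21. TRIM72 (5.74) and PRPH (4.37) were also higher in SG12, and KRR1 (-5.09), SLC6A6 (-4.28) and FGF14 (-3.60) were lower. KRR1 and SLC6A6 had at most 0.683 CPM in any SG12 library in FBS, and TRIM72 and PRPH at most 1.24 CPM in any SG21 library in FBS, so the fold changes of these 4 entries rest on few reads.

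The differences were not spread evenly along the chromosomes, a pattern sought after the data were seen. In 380 windows of 5 Mb with at least 10 entries the median log2 fold change of SG12 over SG21 lay between -0.43 (5th percentile) and 0.54 (95th percentile). On chromosome 10 a stretch around POLL was bounded by a rule chosen after the data were seen: neighbouring entries were joined while the median log2 fold change over 11 of them stayed above that 95th percentile. The FBS values thus chose the stretch, and its counts in FBS are a description. It holds 73 entries, from -5.80 to 1.26 Mb around the start of POLL, of which 67 had a positive log2 fold change, 40 were called higher in SG12 (13.1% of all entries) and 0 lower (14.4% of all entries), with a median of 1.03. With 7 or 15 neighbours in the rule it holds 69 or 74 entries, with medians of 1.05 and 1.02, and without SG12 replicate 3 the 73 entries had 36 called higher and a median of 1.09. In LPDS, in other libraries of the same lines that the rule did not use, 66 of the 73 were positive, with a median of 1.21. At the far edge the TRIM8 entry, 1.06 Mb from the start of POLL, had a log2 fold change of 2.31. The ARL3 entry, at 1.11 Mb, had 1.69 with no call (adjusted p = 0.0985). Beyond the edge the CNNM2 entry, at 1.42 Mb, had 0.31 and was still called higher in SG12 (adjusted p = 0.0187). The 20 entries after the stretch, CNNM2 among them, had a median of -0.26, with 2 called higher and 3 lower. The 20 entries before the stretch had a median of 0.67, above that 95th percentile, with 6 called higher and 1 lower. On the same chromosome the windows from 90 to 95 Mb and from 75 to 80 Mb also had high medians, 0.85 and 0.77. Set side by side against the same SGCTRL libraries, the median of the 73 entries was -0.26 in SG12 and -1.32 in SG21, and against the same parental libraries -0.32 in SG12 and -1.37 in SG21. Neighbouring entries can share reads of overlapping genes.

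As source genes, 15 protein-coding genes of this stretch were measured, all 15 with a positive log2 fold change and 11 called, all 11 higher in SG12. Of all source genes 20.9% were called higher. The 15 are read through entries of the stretch that the FBS values chose, so these counts are a description too. ACTR1A, the dynactin filament protein, had 352, 340.1 and 294 CPM in SG12 and 165, 184 and 174 CPM in SG21 (0.91 ± 0.11, adjusted p = 3.08e-08). SGCTRL was 492, 472 and 519 CPM, above both. LZTS2, a cytoskeletal and Wnt regulator, had 340.3, 322 and 328 CPM in SG12, 119, 107 and 126 CPM in SG21 (1.49 ± 0.12, adjusted p = 1e-12) and 389, 354 and 343 CPM in SGCTRL. POLL and NDUFB8, described above, belong to these 15, as do the ribosome assembly factor RRP12 (1.03), MRPL43 (0.89) of the mitochondrial ribosome and the ubiquitin ligase TRIM8 (1.49). Whether the number of DNA copies differs between the lines was not tested.

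**Figure D5:**
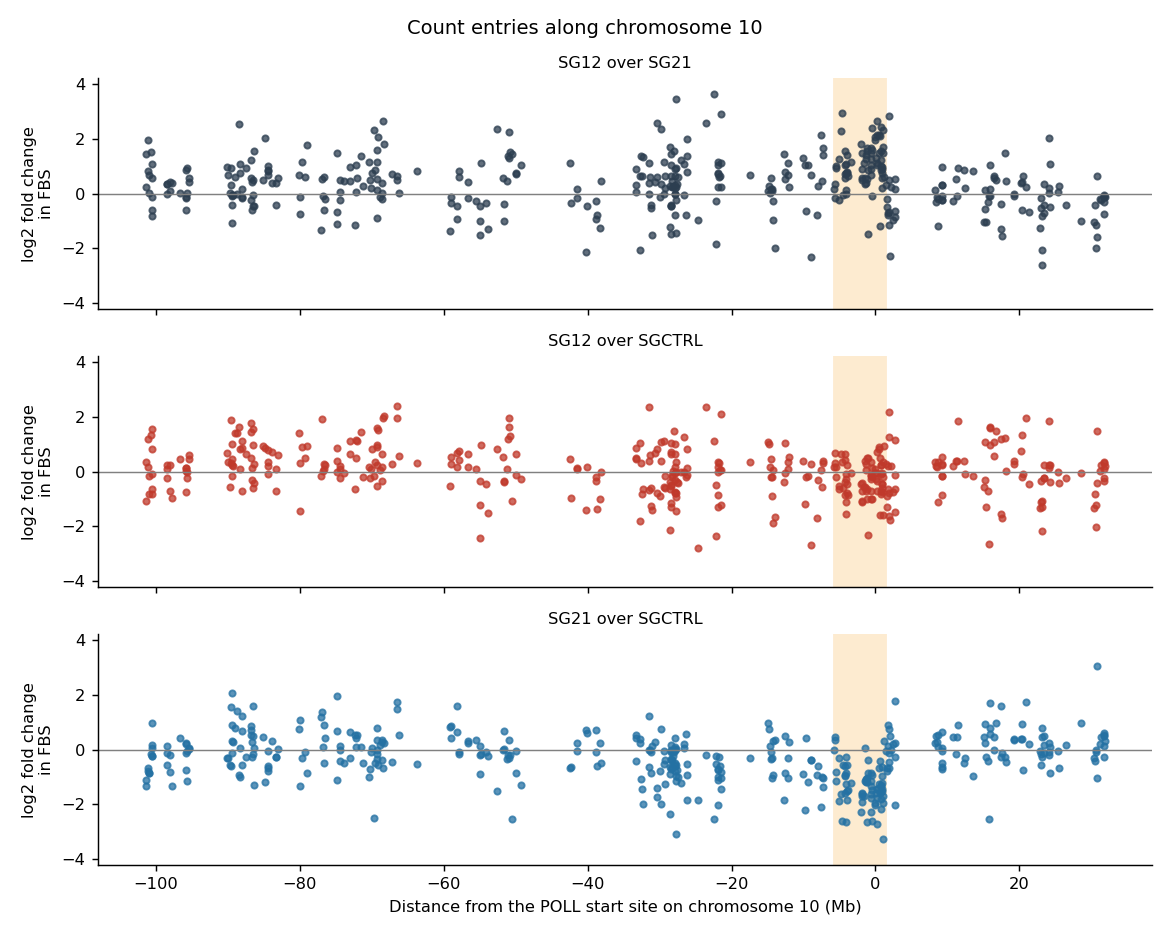
Log2 fold change in FBS of each count entry on chromosome 10 by distance (Mb) from the POLL start site, for SG12 over SG21 (top), SG12 over SGCTRL (middle) and SG21 over SGCTRL (bottom); the shaded stretch holds 73 entries. Their medians are 1.03 for SG12 over SG21, -0.26 for SG12 over SGCTRL and -1.32 for SG21 over SGCTRL.

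Other windows stood out in the same way. On chromosome 18 the window from 75 to 80 Mb had a median of 1.44 over 10 entries, and that from 20 to 25 Mb, which holds NPC1, GATA6 and CABLES1, 0.85 over 18 entries. Over the whole of chromosome 18, 32% of 175 entries were called higher in SG12 and 7.43% lower, with a median of 0.63, and over chromosome 10, 26.7% of 424 entries were higher and 6.84% lower. On chromosome 16 the window from 50 to 55 Mb, which holds NKD1, had a median of 1.16 over 20 entries. The lowest medians were those of chromosome 11 from 130 to 135 Mb (-1.12 over 11 entries) and from 125 to 130 Mb (-1.07 over 19), and of chromosome 4 from 35 to 40 Mb (-1.03 over 16). In LPDS their medians were -0.72, -0.73 and -1.06. Of the 106 named source genes, 14 lie in windows beyond the 5th or the 95th percentile, among them 6 of the 24 with the largest differences: FXYD6, NKD1, NRP1, POLL, CABLES1 and GATA6. Also among the 14 are ACAT2, in a window with a median of -0.50, GRAMD1A (-0.78), TWIST1 (0.72), and ZEB1 with NRP1 (0.72). HMGCS1, LSS, MCM2, RAD54L, VIM and CD44 are not among them. By construction 5% of the windows lie beyond each of these percentiles, and the share of all source genes in them was not counted. Many of the named genes were chosen by their FBS values, and their own entries can enter the window medians. The overlap is thus partly built in.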

How the data were processed

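Per the labels' protocols, libraries were made from total RNA with an Illumina stranded kit that depletes ribosomal RNA (Ribo-Zero Plus). Per the submitters' processing notes, bcl2fastq and STAR were used with hg38, and versions are not given. The deposited values are raw counts per gene entry, 1 file per library, whose counting program, strand setting and annotation are not given in the sources used here. The closing entries of each file (no feature, 94.3% to 94.6% of uniquely aligned reads in the 6 libraries; ambiguous) stayed out of library sizes.

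From the deposited counts, edgeR 4.0.16 in R 4.3.3 fitted a mean for each of 8 groups to all 24 libraries (filterByExpr, TMM, quasi-likelihood F test), which kept 12822 of 61578 entries. Benjamini-Hochberg adjustment ran over all entries and an adjusted p under 0.05 was called. Values after ± are standard errors of log2 fold changes, back-calculated from the F statistic and approximate; CPM use TMM-scaled library sizes. The depth of 2532742 to 3957078 counts sets the precision of low entries.

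Entries were matched to GENCODE 29 (56807 matched). The source gene of an entry is the gene on the other strand with at least 50 bases of exon overlap and at least 80% of all such overlap (10152 entries, 8757 genes). A source gene was read where its mean exceeded 5.73 CPM, and chosen for the size of its difference only above 48.7 CPM; these are the 90th and the 99th percentiles of 9466 protein-coding entries that no gene overlaps on the opposite strand. Where the entry's own gene may supply over 50% of the reads it was set aside (51 genes). Levels entered the likeness to TMEM97 as log2 of CPM plus 1.

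The members, the 25 gene lists (677 genes, 152 measured) and the tests were chosen with earlier results of these data known. By rule, named genes are TMEM97, IFT20, NPC1, PGRMC1 and measured cholesterol genes, up to 6 called members of each other list by adjusted p, the 12 largest rises and falls with the libraries apart above the 99th percentile, 4 and 4 own-name entries, 3 and 3 medium differences and 5 genes like TMEM97. Other list members, the genes of chromosome 10 other than POLL and NDUFB8, and the rule for the stretch of chromosome 10 (11 neighbouring entries; 7 and 15 tried) were picked after their values were seen. No interferon gene was readable. Some genes that the rule names are not reported here. Alternatives were DESeq2 1.42.0 (size factors, Wald test), other count filters, a fit of the compared groups only, a replicate block, a term for the ambiguous-read split, the own-name share of reads, all aligned reads as library size, and each library left out.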

Additional observations from a re-analysis of the deposited data

Results flagged for a closer look

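The difference between SG12 and SG21 in FBS was set against that between the same lines in LPDS, and the change of the difference itself was tested with an interaction term in edgeR. It passed an adjusted p under 0.05 for 1650 of 12822 entries (12.9%), for 614 of 2811 source genes (21.8%) and for 62 of the genes named. Many of the named genes were chosen by their difference in FBS, which enters this test, or by the change itself. The 62 is therefore not a share to set against those of all entries or source genes. The values are the log2 difference of SG12 minus SG21 in FBS minus that in LPDS, so a negative one means that SG12 stood lower relative to SG21 in FBS than in LPDS. Among sterol and lipid genes it was -1.18 for TMEM97, -1.17 for LRP8, -1.25 for GRAMD1A, -0.70 for ACAT2, -1.29 for HMGCS1, -1.84 for IDI1, -0.99 for LSS, -0.82 for FADS2, -1.06 for PCYT2 and 1.01 for DGAT2. Among genes of replication, repair and mitosis it was -0.89 for MCM2, -0.85 for LIG1, -0.77 for CCNE2, -0.93 for CLSPN, -1.09 for RAD54L, -1.03 for FANCA, -0.54 for MSH6, -1.24 for ANLN, -1.76 for KIF20A and -1.08 for KIF4A. Among stress response, tRNA and chaperone genes it was 1.87 for SLC7A11, 1.32 for MTHFD2, 1.44 for ALDH1L2, 1.02 for PYCR1, 0.63 for VEGFA, 2.72 for WARS1, 2.04 for AIMP2, 1.04 for MARS1 and -0.63 for HSP90B1. Among metabolic, mitochondrial, lysosomal and ribosomal genes it was -1.06 for ALDOC, -0.33 for GAPDH, -0.81 for ANKRD37, 0.84 for P4HA2, 0.49 for NDUFS7, -0.67 for IDH3G, -0.83 for POLG, 0.54 for HEXA, -0.63 for WIPI1, 1.03 for TP53I3 and 0.95 for RPL15. Among mesenchymal, guidance and growth genes it was -1.14 for TWIST1, 1.00 for NKD1, 0.73 for NRP1, 1.01 for BDNF and 0.64 for EFNB2. Among the genes named for the size of their difference or their likeness to TMEM97 it was -1.75 for FXYD6, -1.20 for TUBA1B, -1.80 for ARHGAP33, -1.25 for SLCO4A1, -0.94 for PRDX1, -1.65 for S100A1, 1.97 for TRAK2, 2.15 for PYROXD1, 1.05 for CABLES1, 1.08 for NUDT17, 0.82 for GATA6, 2.74 for SAMD11, 2.28 for SNTB1, -1.87 for PNN, -0.92 for IER2, -1.08 for C11orf96 and -1.03 for NR4A1. SG21 replicates 2 and 3 in LPDS differ from replicate 1 in their share of ambiguous reads, and the part of this in these values was not tested gene by gene.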

How the results depend on the processing

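For SG12 against SG21 in FBS, 114 named results, TMEM97 among them, were set against the alternative runs. Of these, 94 kept their direction and their side of the threshold in every run, 20 lost a call in at least 1, and none reversed (1644 of 1710 values kept both). Values of single genes in LPDS, and their changes between media, were not checked in the alternative runs. With a term for the split in ambiguous reads, the entries that differed in LPDS numbered 1100 (482 higher and 618 lower in SG12) and those that depended on the medium 837 (414 and 423); the cause was not tested. Without 1 library at a time, the count in FBS ranged from 2755 to 3389, in LPDS from 1666 to 2360 and for the medium from 1167 to 1973, called list members from 79 to 87, and the TMEM97 log2 fold change from -0.58 to -0.40, its call being lost without SG12 replicate 2 (-0.40, adjusted p = 0.0574 in edgeR).

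The balance of direction in FBS turned from more lower to more higher entries without SG12 replicate 2 (1592 higher, 1189 lower) and SG21 replicate 2 (1726 and 1241) or 3 (1661 and 1230), with DESeq2's size factors (1825 and 1707) or Wald test (1645 and 1519), and with the spread of the compared groups alone (1761 and 1712). With the replicate number as a block the counts were 3583 in FBS, 2412 in LPDS and 1732 for the medium, TMEM97 had -0.52 and 92 list members were called; of the named genes PDIA3 lost its call (adjusted p = 0.0507). The numbers were not taken as pairs: deviations of libraries with the same number had r of -0.07, -0.04 and -0.08 over 3473 entries, and not every library correlated best with its own number.

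Genes with few reads in the overlap, such as ACSL3 and ZEB1, are limited by depth.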
